A study of Mus musculus with 11 samples.

Results

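Kinesins are motor proteins that walk along microtubules, and their genes were followed here in RNA sequencing of leaflets of the mouse mitral valve, which keeps blood from flowing back into the left atrium. The members were all genes whose symbol is Kif followed by a number and letters, together with Kifap3 and Kifc1 to Kifc3. The rule found 41 of 24062 genes in the table of the Ift88 experiment and the same 41 symbols among 26667 genes in the table of the Dzip1 experiment. Most kinesins carry vesicles, organelles or protein complexes toward the growing ends of microtubules, while a set made in dividing cells builds the spindle, moves chromosomes or closes the bridge between daughter cells. A smaller set serves the primary cilium, the single antenna of most cells, in which kinesin-2 pulls the cargo trains of intraflagellar transport and Kif7 acts at the tip in Hedgehog signalling. By these roles 4 members were grouped as ciliary, 12 as mitotic, 14 as cargo and 11 as other kinesins.

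The first experiment held 3 knockout libraries from mice labelled NfatC1Cre(+), Ift88f/f and 2 wild-type libraries labelled NfatC1Cre(+); Ift88+/+, so both groups carried the Cre. Ift88 encodes a protein of the intraflagellar transport trains. Nfatc1, after which the Cre is named, is a gene of the endocardium. Cells of a leaflet outside the lineage in which the Cre was active may keep Ift88. The second experiment held 3 libraries labelled Dzip1S14R/+, heterozygous for the S14R allele of a gene of the ciliary base, and 3 labelled Dzip1+/+. The tables were analysed apart. No source used here states the age of the mice. Nor do the labels tie each library to an animal of its own, so the spread behind every p-value is that between libraries and may be technical.

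Total counts were 23.4 to 40.3 M in the knockout and 31.4 to 53.8 M in its wild type, 86.0 to 93.5 M in S14R/+ and 75.1 to 79.1 M in its wild type (M, 1000000 counts). Beyond counting error, libraries of a group varied by 87.7% in the Ift88 experiment and by 7.85% in the other (edgeR, biological coefficient of variation). As the check of the labels, Ift88 had 3.00, 3.92 and 0.409 CPM (counts scaled to a common library size of 1000000) in the knockout libraries, against 7.54 and 19.8 CPM in the wild type (log2 fold change -2.48 ± 1.13 SE, adjusted p = 0.802 by edgeR's quasi-likelihood test). All 3 knockout libraries were below both wild-type libraries, but counts cover the whole gene and not the deleted part alone. The S14R allele changes a residue, so counts of Dzip1 cannot check that label. Of 8 markers each of valve interstitial cells and of endothelium and endocardium, none was at 0 in any library of either experiment. The 2 Ift88 wild-type libraries stood apart in cell markers. Replicate 2 had a summed level of 103 CPM over 12 cardiomyocyte markers, against 57802 CPM in wild-type replicate 1 and 27379 to 34589 CPM in the knockout. Replicate 1 had 259 CPM over the endothelial and endocardial markers, against 1907 CPM in wild-type replicate 2 and 1374 to 2393 CPM in the knockout. Over the valve interstitial markers it had 2609 CPM, against 7640 CPM in wild-type replicate 2 and 7237 to 10529 CPM in the knockout. The part of these differences in the kinesin results was not tested.

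In the Ift88 experiment no kinesin passed the threshold, yet most of those tested had higher counts in the knockout than in the wild type. Of the 41 members, 36 passed the filter on low counts and were tested. By edgeR's quasi-likelihood test, 0 of 36 had an adjusted p under 0.05, as did 0 of all 14244 genes tested (0%), and the smallest adjusted p among the kinesins was 0.802. At an unadjusted p under 0.05, 6 kinesins were higher, against 4.75% of all genes, and 0 were lower, against 1.26% of all genes. DESeq2 called 2 kinesins higher, Kif20b and Kif5a, where it called 2.22% of all genes higher, and 0 lower, where it called 0.112% of all genes lower. The log2 fold change was positive for 32 of the 36, against 49.4% of all genes, and its median was 0.93, against -0.01 over all genes. Kif5a, Kifc2 and Kif21b, among the 32, had no wild-type count. They passed the filter through the knockout alone, and their sign could only be positive. Kif5a and Kifc2 are also among the 6 above, and Kif5a is 1 of the 2 that DESeq2 called. The median of 0.93 includes Kif5a, Kifc2 and Kif21b. In 15 of the 36 the lowest knockout library lay above the highest wild-type library, which held for 13.5% of all genes, and in 0 of the 36 the reverse held, against 11.1% of all genes. The count of 15 became 13 of 33 without the members at 0 in the wild type. Without knockout replicate 3 it was 25 of the 36, or 22 of 33 without those members, against 21.4% of all genes. Such a count can hardly fall when a library is left out, short of changes in scaling. Among the libraries titled IR28N, 2 knockout and 1 wild-type, the kinesin median was 1.00, against 0.23 over all genes. In bulk tissue, more cells of a type and more RNA per cell cannot be told apart.

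**Figure D1:**
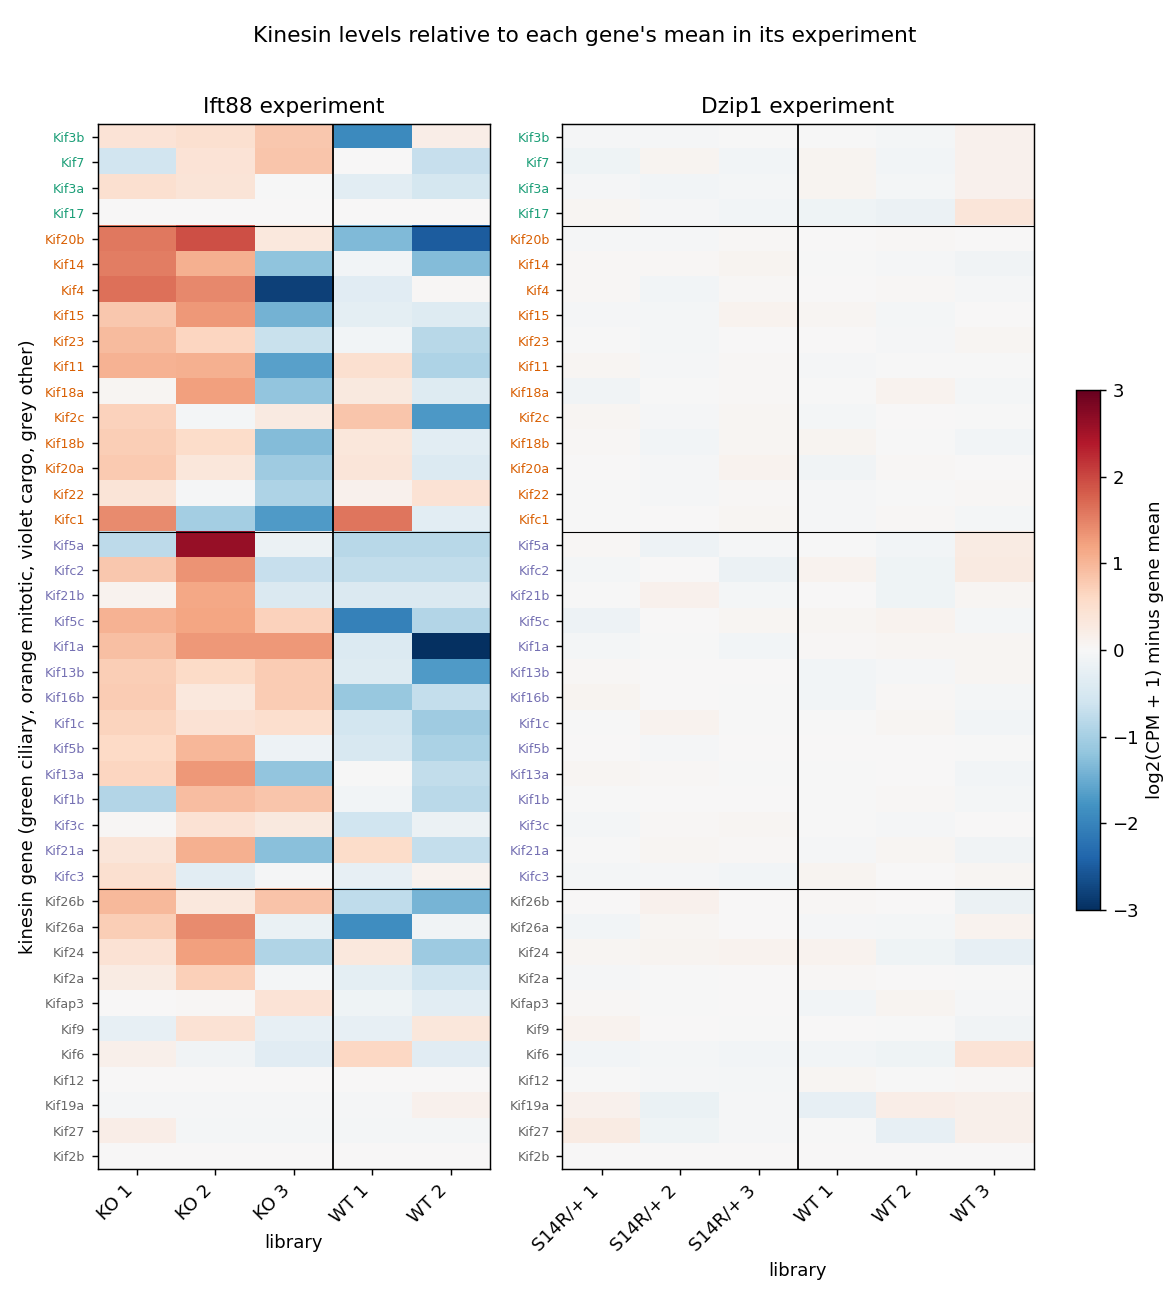
Level of each kinesin gene in each library as log2(CPM + 1) minus the gene's mean in its experiment, by role (green ciliary, orange mitotic, violet cargo, grey other), with the mutant libraries left of the black line and wild type right of it. In the Ift88 experiment most cargo genes are above their mean in knockout replicates 1 and 2 and below it in both wild-type libraries, and most mitotic genes are below their mean in knockout replicate 3; the Dzip1 experiment shows little colour.

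The ciliary kinesins that could be tested were higher in the knockout without passing the threshold. Kif3a, which with Kif3b forms the motor of anterograde intraflagellar transport, lies at chr11:53567379-53601967 in GRCm38 (GENCODE M21). It had 33.0, 31.0 and 23.3 CPM in the knockout libraries, against 18.7 and 15.9 CPM in the wild type. The 2 groups were apart (log2 fold change 0.75 ± 0.44 SE, adjusted p = 0.847 by edgeR). Kif3b had 16.4, 17.2 and 21.8 CPM in the knockout, against 2.44 and 14.1 CPM in the wild type (log2 fold change 1.16 ± 0.84). Its groups did not overlap either, and the low value of wild-type replicate 1 widened the wild-type spread. Kifap3, which encodes the adaptor that ties this motor to its load, had 57.6, 59.4 and 76.2 CPM in the knockout, against 52.4 and 46.0 CPM in the wild type, with no overlap and a log2 fold change of 0.39 ± 0.35. Kif7, the Hedgehog regulator, had 1.33, 3.66 and 5.24 CPM in the knockout and 2.51 and 1.14 CPM in the wild type, and these groups overlapped. Kif17, a homodimeric kinesin-2 known from neuronal and photoreceptor cilia, had no count in any of the 5 libraries. Per kilobase (kb) of exon, Kif3a stood 3.17, 2.82 and 1.68 times as high as Kif3b in the knockout, against 12.1 and 1.78 times in the wild type. Summed over Kif3a, Kif3b and Kif7, the ciliary level was 50.7, 51.9 and 50.3 CPM in the knockout, against 23.6 and 31.1 CPM in the wild type.

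Partners of the ciliary kinesins did not share a direction. Of 18 transport proteins and Hedgehog components, all were tested, 8 had a positive and 10 a negative log2 fold change. By edgeR or DESeq2 0 passed the threshold. At an unadjusted p under 0.05 there was 1 of 18, where 4.75% of all genes were higher and 1.26% lower. That one was Gli2, a Hedgehog transcription factor, which had 1.36, 3.59 and 0.041 CPM in the knockout libraries and 0 in both wild-type libraries. It passed the filter through the knockout alone, and its sign could only be positive. The next smallest p was that of Ift88 itself.

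Mitotic kinesins differed between the knockout libraries as much as between the groups. Of 12 genes, all tested, 10 had a positive log2 fold change with a median of 0.53, but only Kif20b had groups that did not overlap, 1 of 12 against 13.5% of all genes. Knockout replicate 3 was the lowest of the 5 libraries for 8 of the 12, where it was lowest for 19.3% of all genes, and wild-type replicate 2 was lowest for the other 4. The summed mitotic level was 418, 366 and 110 CPM in the knockout, against 273 and 170 CPM in the wild type, so the knockout libraries lay on both sides of the wild type. The 2 low libraries, knockout replicate 3 and wild-type replicate 2, are also those whose titles fall outside the IR28N series, and all 12 genes were lowest in one of them. What the title series stand for is not stated, and their part in the mitotic level was not tested. Within the IR28N libraries the mitotic median was 0.55, against 0.23 over all genes. Without knockout replicate 3 the median was 0.99 and 7 of the 12 did not overlap, against 21.4% of all genes. That replicate was the lowest for most of the 12, so leaving it out could hardly lower the count. Leaving out a wild-type library gave 1.08 for replicate 1, where the median of all genes was 0.15, and 0.08 for replicate 2, where that of all genes was 0.25.

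Kif20b, a motor of cytokinesis at chr19:34922361-34975745 in GRCm38, had the largest fold change among the mitotic kinesins. It had 20.5, 26.7 and 7.94 CPM in the knockout libraries, against 1.90 and 0.277 CPM in the wild type. No knockout library came near the wild-type values (log2 fold change 4.09 ± 1.19 SE, unadjusted p = 0.0134, adjusted p = 0.802 by edgeR). DESeq2 gave an adjusted p of 0.00802, and the authors' deposited table gives a log2 fold change of 2.18 with an adjusted p of 0.0362. Kif23, a subunit of the centralspindlin complex of the spindle midzone, had 49.2, 39.8 and 15.4 CPM in the knockout and 23.9 and 13.7 CPM in the wild type (log2 fold change 0.89 ± 0.63). Kif14, a midbody motor, had 6.29, 4.25 and 0.0819 CPM in the knockout and 1.37 and 0.0173 CPM in the wild type (2.36 ± 2.36). In both genes knockout replicates 1 and 2 were above the wild type, and replicate 3 lay between the wild-type libraries. Kif11, which pushes spindle poles apart, was likewise low in knockout replicate 3, with 80.1, 82.3 and 11.8 CPM in the knockout and 54.0 and 19.7 CPM in the wild type. Kif4, a chromosome-arm motor, had 44.7, 38.7 and 1.105 CPM in the knockout and 10.5 and 13.97 CPM in the wild type. Kif22, another chromosome motor, and Kifc1, a minus-end motor that bundles spindle microtubules, had negative fold changes, -0.39 ± 0.48 and -0.92 ± 2.16. Kifc1 has a near-identical relative, Kifc5b, with which reads may be shared, so its counts are uncertain.

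The mitotic partners were also low in the same 2 libraries. The summed level of 18 mitotic regulators was 1587, 1297 and 516 CPM in the knockout and 1889 and 762 CPM in the wild type, and 12 of the 18 were lowest in knockout replicate 3. Their log2 fold changes were positive for 7 and negative for 11, and 0 passed the threshold by either tool, with 0 at an unadjusted p under 0.05. At that unadjusted p 4.75% of all genes were higher and 1.26% lower. Numa1, a spindle-pole protein, and Mki67, a proliferation marker, had the smallest p, with log2 fold changes of 1.47 ± 0.62 and 2.23 ± 1.09. Mki67 had 32.3, 36.0 and 3.64 CPM in the knockout and 7.27 and 2.93 CPM in the wild type. Low mitotic levels thus stood beside low Mki67 in knockout replicate 3 and wild-type replicate 2, and whether those libraries held fewer dividing cells was not tested.

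Mitotic kinesin promoters shared sequence motifs that the grouping did not use. Windows from 250 bases before to 50 bases after the gene start, from RefSeq on GRCm38.p6, were found for 33 of the 41 members, 37 windows in all, since 4 members (Kif1a, Kif1b, Kif2a and Kif9) have 2 starts each. Both strands were searched for CCAAT, the box bound by factor NF-Y, and for TTTGAA, the cell cycle homology region of many genes of late cell cycle. TTTGAA was present in 10 of 11 mitotic windows, 0 of 4 ciliary, 1 of 10 cargo and 2 of 12 other windows, against 17.9% of 32851 windows of all genes. CCAAT was present in 7 of 11 mitotic, 2 of 4 ciliary, 2 of 10 cargo and 6 of 12 other windows, against 37.4% of all. The 2 cargo windows were both of Kif1b and overlap each other, so by gene CCAAT was in 1 of 8 cargo genes. The cargo genes Kif5b, Kif13b, Kifc3, Kif21b, Kif5a and Kifc2 had no window, nor did Kif20a and Kif19a, so the cargo counts cover 8 of 14 genes. Both motifs stood in 7 of 11 mitotic windows, 2 of 12 other windows (Kif26b and Kif27) and 0 of 14 ciliary and cargo windows, against 6.95% of all. The motif sequences do not overlap each other, and a match of letters is a description, not a binding site. The last 120 bases before the start are printed for 4 mitotic kinesins, with 2 cargo genes and the ciliary pair Kif3a and Kif3b for contrast, in the direction of transcription. Capitals mark CCAAT or TTTGAA on either strand (ATTGG and TTCAAA on the reverse).
Kif11 (mitotic, chr19:37376262-37376381, + strand): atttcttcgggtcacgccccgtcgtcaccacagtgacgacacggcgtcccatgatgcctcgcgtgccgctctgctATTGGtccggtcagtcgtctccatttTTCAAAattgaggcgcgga
Kif22 (mitotic, chr7:127042421-127042540, - strand): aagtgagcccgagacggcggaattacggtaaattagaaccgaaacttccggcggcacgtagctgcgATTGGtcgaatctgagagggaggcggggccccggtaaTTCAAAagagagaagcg
Kif15 (mitotic, chr9:122950961-122951080, + strand): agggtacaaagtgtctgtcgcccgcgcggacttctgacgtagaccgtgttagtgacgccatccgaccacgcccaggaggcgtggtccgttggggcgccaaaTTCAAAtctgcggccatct
Kif18b (mitotic, chr11:102925125-102925244, - strand): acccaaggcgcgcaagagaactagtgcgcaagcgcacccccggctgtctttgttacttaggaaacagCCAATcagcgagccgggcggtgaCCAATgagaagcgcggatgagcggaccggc
Kif16b (cargo, chr2:142901465-142901584, - strand): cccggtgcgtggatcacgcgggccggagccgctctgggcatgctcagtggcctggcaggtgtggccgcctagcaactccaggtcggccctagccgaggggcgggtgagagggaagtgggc
Kif1c (cargo, chr11:70700428-70700547, + strand): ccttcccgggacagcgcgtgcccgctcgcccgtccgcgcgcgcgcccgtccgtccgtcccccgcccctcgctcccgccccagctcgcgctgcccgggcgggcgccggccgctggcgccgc
Kif3a (ciliary, chr11:53567249-53567368, + strand): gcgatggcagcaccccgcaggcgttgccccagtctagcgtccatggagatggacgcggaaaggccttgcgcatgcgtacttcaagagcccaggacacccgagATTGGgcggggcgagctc
Kif3b (ciliary, chr2:153291296-153291415, + strand): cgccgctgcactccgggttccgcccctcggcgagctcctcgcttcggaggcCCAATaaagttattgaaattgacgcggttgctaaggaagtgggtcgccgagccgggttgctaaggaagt

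In Kif11 and Kif15 the TTTGAA match began at position -19, and in Kif22 at -17, counted from the base before the start as -1. The match of Kif18b began 3 bases past the start, outside the printed stretch. The printed genes are chosen examples. Of the mitotic genes not printed, Kif2c had its match at -103 and Kif14 at -228, and Kif18a had neither motif. In Kifc1, Kif23, Kif20b and Kif4 a match began 1 to 19 bases past the start. The windows of Kif16b and Kif1c held neither motif, and those of Kif3a and Kif3b held CCAAT alone. Those of the other ciliary genes, Kif7 and Kif17, held neither. Of the cargo genes not printed, Kif1b held CCAAT and a window of Kif1a held TTTGAA, at -44.

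The cargo kinesins had the largest median fold change of the 4 roles. All 14 were tested and all 14 had a positive log2 fold change, with a median of 1.57. Of these, Kif5a, Kifc2 and Kif21b had no wild-type count. They passed the filter through the knockout alone, and their sign could only be positive. The median includes these 3 genes, whose values are the largest of the 14, and is not given without them. In 9 of the 14 the knockout libraries lay above the wild type without overlap, against 13.5% of all genes, and in 0 below it, against 11.1%. Of the 3 members at 0 in both wild-type libraries, 2 were among these 9, and 7 of the other 11 did not overlap. Leaving out wild-type replicate 1 or replicate 2 gave 9 of 14 each time, against 30.1% and 32.6% of all genes. Without members at 0 in the wild type it was 7 of 11 each time. A gene above both wild-type libraries is also above either one, short of changes in scaling. These counts could therefore hardly fall, and they do not test the part of cell markers. Kif16b, which moves early endosomes, had 24.7, 17.9 and 24.8 CPM in the knockout, against 5.97 and 8.34 CPM in the wild type. The 3 knockout values were of similar height and all above the wild type (log2 fold change 1.65 ± 0.55 SE, unadjusted p = 0.0233, adjusted p = 0.802 by edgeR). Kif5b, the widely used heavy chain of kinesin-1, had 321, 419 and 190 CPM in the knockout, against 151 and 108 CPM in the wild type (log2 fold change 1.26 ± 0.46). The lowest knockout library was above the higher wild-type library here as well. Kif1c, a vesicle motor, had 14.8, 12.6 and 13.3 CPM in the knockout, against 5.90 and 3.78 CPM in the wild type (log2 fold change 1.49 ± 0.68). Kif1a, a motor of synaptic vesicle precursors in neurons, had 17.9, 23.9 and 24.0 CPM in the knockout, against 6.62 and 0.173 CPM in the wild type (2.70 ± 1.39). The 2 wild-type values of Kif1a were far apart. A fit without wild-type replicate 1 keeps 1 wild-type library, the one at 0.173 CPM, and assumes that it varies like the others. No call is therefore read from that fit.

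Kif5c, Kif13b and Kif3c also did not overlap, with log2 fold changes of 3.51 ± 1.94, 2.12 ± 1.18 and 0.68 ± 0.53. Kif13a, Kif1b, Kif21a and Kifc3 had fold changes from 0.16 to 0.96 and overlapping groups. Kifc2, a minus-end motor known from neurons, had 1.93, 3.26 and 0.0409 CPM in the knockout and no count in the wild type. Its summed counts of 200 in the knockout put it at least 56.8-fold higher, with the wild type set at a floor of 3 counts over the group. Replicate 2 gave 138 of these counts, and without it the bound was 30.9-fold. Kif5a, a neuronal heavy chain of kinesin-1, had 0.0316, 9.81 and 0.573 CPM in the knockout and no count in the wild type, at least 122-fold higher by the same floor. Knockout replicate 2 gave 416 of its 431 counts, and without it the bound was 7.49-fold; its adjusted p was 0.0454 by DESeq2 and 0.802 by edgeR. Kif21b had 0.442, 2.00 and 0 CPM in the knockout and none in the wild type, at least 28.1-fold higher, with overlap at 0. Replicate 2 gave 85 of its 99 counts, and without it the bound was 6.99-fold. The floor covers counting error only. The summed level of 8 neuron markers was 64.8, 113 and 58.4 CPM in the knockout and 44.9 and 75.3 CPM in the wild type. It was highest in knockout replicate 2, where Uchl1 alone gave 69.7 CPM. The markers did not share a direction there. Uchl1, Map2 and Tubb3 were above both wild-type libraries and Stmn2 lay between them. Elavl4, at 3.40 CPM, was below both (6.55 and 5.91 CPM). Snap25 was counted there and in wild-type replicate 1, and Syt1 there alone. Rbfox3, which marks mature neurons, was at 0 in all 5 libraries. The part of neurons in these values was not tested.

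Cargo adaptors and light chains had a smaller median fold change than the cargo kinesins, a set that includes members at 0 in the wild type. Of 16 listed partners 14 were tested, 10 with a positive and 4 with a negative log2 fold change and a median of 0.48. By edgeR 0 passed the threshold and 2 had an unadjusted p under 0.05, where 4.75% of all genes were higher and 1.26% lower. DESeq2 called 1, where it called 2.22% of all genes higher and 0.112% lower. Kidins220, a membrane scaffold known to bind Kif5 motors, had 57.4, 77.1 and 49.6 CPM in the knockout, against 19.3 and 6.92 CPM in the wild type (log2 fold change 2.23 ± 0.58). Bicd2, an adaptor that binds dynein and Kif5 motors, had 56.5, 83.5 and 34.3 CPM in the knockout, against 24.6 and 20.6 CPM in the wild type (1.36 ± 0.50). Klc1, the main kinesin-1 light chain, had 52.3, 107 and 88.1 CPM in the knockout and 32.8 and 89.7 CPM in the wild type, with overlap.

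Of the 11 other kinesins 7 were tested, 5 with a positive log2 fold change and a median of 0.83. Kif26b, an atypical kinesin of cell adhesion and signalling without a working motor, had 20.7, 12.9 and 19.2 CPM in the knockout, against 5.63 and 3.26 CPM in the wild type. The groups did not overlap (log2 fold change 1.99 ± 0.67 SE, unadjusted p = 0.0241, adjusted p = 0.802 by edgeR). Its relative Kif26a had 22.8, 36.6 and 11.4 CPM in the knockout and 2.89 and 12.2 CPM in the wild type (1.64 ± 0.87), and 1 knockout library lay below a wild-type library. Kif2a, which takes microtubules apart at their ends, had 14.9, 21.2 and 11.9 CPM in the knockout, against 10.0 and 7.90 CPM in the wild type, with no overlap (0.83 ± 0.60). Kif24, a centriolar kinesin that restrains cilium formation, had 1.86, 3.99 and 0.123 CPM in the knockout and 1.64 and 0 CPM in the wild type. Kif6 and Kif9, kinesins of motile cilia, stayed below 1 CPM in every library. Kif12 and Kif2b had no count in any library, Kif19a had counts only in wild-type replicate 2, at 0.121 CPM, and Kif27 had counts only in knockout replicate 1, at 0.19 CPM.

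**Figure D2:**
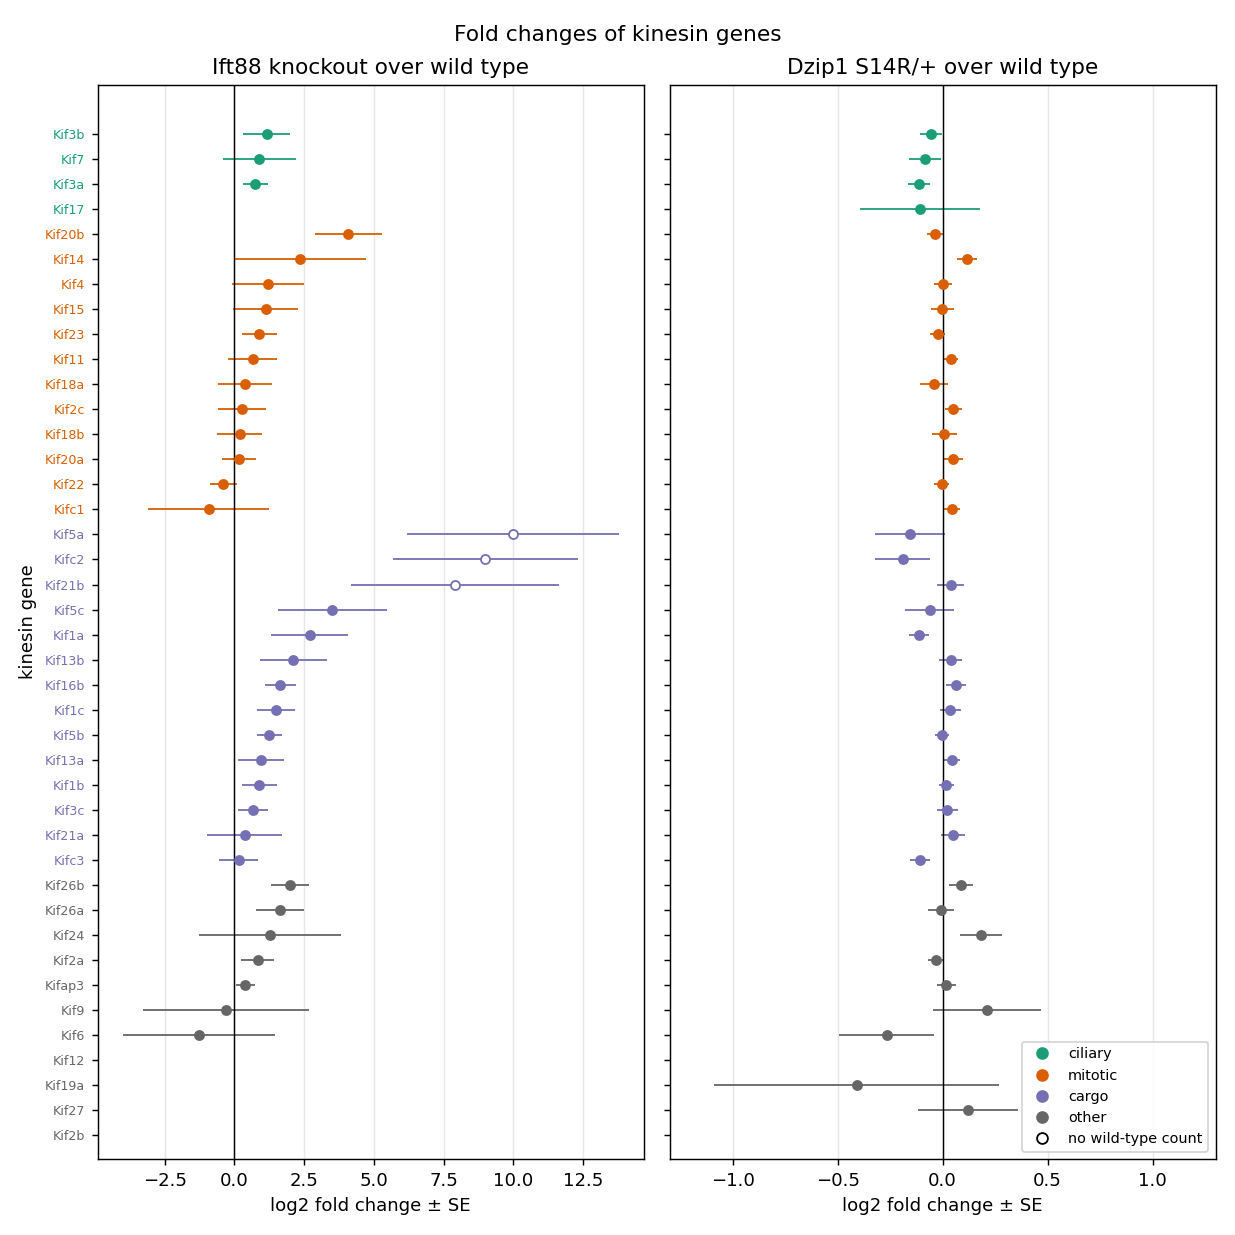
Log2 fold change of each tested kinesin, mutant over wild type, with a standard error derived from edgeR's F statistic (3 knockout and 2 wild-type libraries on the left, 3 S14R/+ and 3 wild-type libraries on the right). Open points mark genes with no wild-type count, whose fitted value is no bound and whose error bar has little meaning. The Ift88 points of cargo kinesins all lie right of 0, and the Dzip1 axis is narrower, with all 4 ciliary points left of 0.

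Set against each other within a library, mitotic and cargo kinesins were in a different balance in knockout replicate 3. The mean log2(CPM + 1) of the mitotic genes minus that of the cargo genes was 1.12, 0.29 and -0.66 in the knockout and 1.23 and 0.73 in the wild type, and the groups overlapped. The mitotic genes made up 44.8%, 34.6% and 20.8% of the kinesin level per kb of exon in the knockout and 49.9% and 42.4% in the wild type. Cargo genes made up 35.2%, 44.8% and 44.2% in the knockout, against 29.2% in each wild-type library, so their share was higher in all 3 knockout libraries. The ciliary share was 7.28%, 6.89% and 11.4% in the knockout and 5.88% and 9.29% in the wild type, with overlap. The summed cargo level was 494, 716 and 426 CPM in the knockout, against 279 and 196 CPM in the wild type. Of these sums Kif5b gave 321, 419 and 190 CPM in the knockout and 151 and 108 CPM in the wild type.

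**Figure D3:**
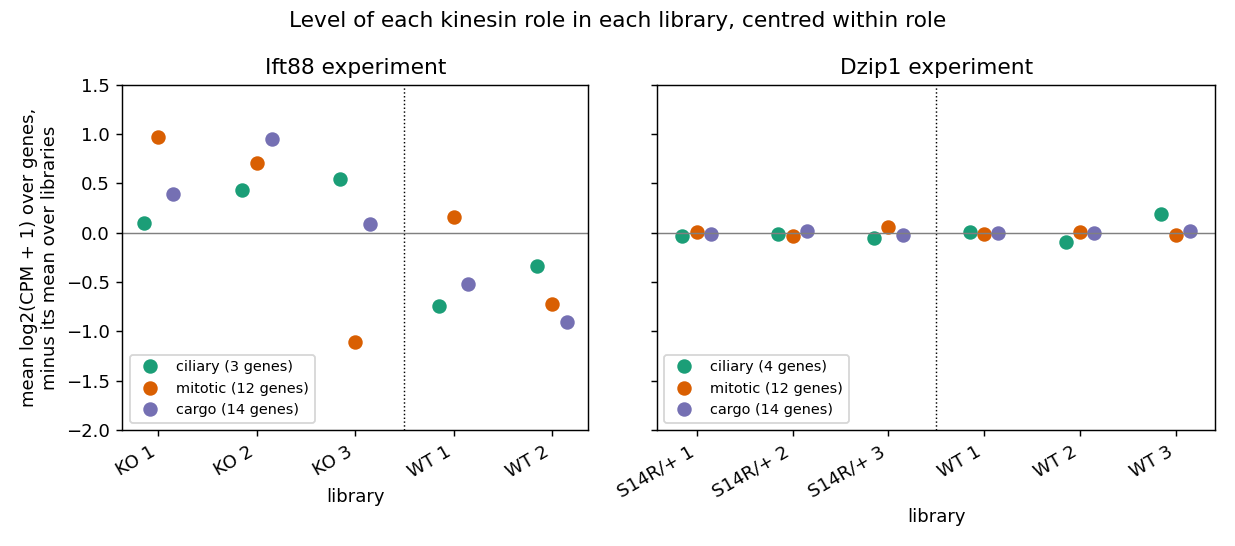
Mean log2(CPM + 1) over the genes of each role in each library, minus its mean over the libraries of the experiment, so that heights compare libraries within a role. In the Ift88 experiment ciliary and cargo points are higher in all 3 knockout libraries than in both wild-type libraries, whereas the mitotic point is lowest in knockout replicate 3; in the Dzip1 experiment the points stay close to 0.

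Kinesin genes are long, and fold changes in the Ift88 experiment moved with length. The tested kinesins had a median exon length of 6.97 kb, against 4.35 kb over all tested genes, and the log2 fold change had a Spearman correlation of 0.351 with exon length across all tested genes, which are not independent replicates. A correction for length in each library lowered the median of all genes to -0.24. Relative to the median of all genes, the kinesin median was then 0.58, where it was 0.94 without the correction. The same relative median was 0.23 for mitotic kinesins (0.54 without the correction), 0.85 for ciliary (0.91), 1.17 for cargo (1.58) and 0.56 for other kinesins (0.85). The medians of all kinesins and of cargo kinesins include the members at 0 in the wild type. After the correction 8 of 36 kinesins did not overlap, against 8.29% of all genes, and 6 of these 8 were cargo kinesins, namely Kif16b, Kif1c, Kif1a, Kif5c, Kif5a and Kifc2. The other 2 were Kif20b and Kif3b. Kif5b, Kif3a, Kifap3, Kif26b, Kif13b, Kif3c and Kif2a, which did not overlap before the correction, overlapped after it. Kif5a and Kifc2, at 0 in the wild type and counted in every knockout library, could not overlap under any scaling. Without members at 0 in the wild type the counts were 6 of 33 kinesins and 4 of 11 cargo kinesins. RNA quality, which can act through length, cannot be read from these files, and its part in the result was not tested.

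The Dzip1 libraries, being deeper and closely alike, gave the order of kinesin levels in this tissue sample, which held much muscle RNA: cardiomyocyte markers summed to 41243 to 41672 CPM in S14R/+ and 35015 to 40044 CPM in the wild type. Of the 41 members 40 had a count in each of the 6 libraries, Kif2b being at 0 in all. Per kb of exon in the wild type, Kif5b stood at 38.1 ± 0.231 and Kif1c at 37.7 ± 1.98 CPM per kb (SD, n = 3), and the libraries of these 2 overlapped. Kif13a, an endosome motor, followed at 33.6 ± 1.04, and Kif20a, which carries the Aurora B complex to the spindle midzone, at 30.5 ± 1.56 CPM per kb. Below them came Kif11 at 23.3 ± 0.176 and Kifc1 at 22.2 ± 0.711 CPM per kb, each apart from its neighbours. Kifap3, Kif4, Kif2c and Kif22 lay together from 17.5 to 16.6 CPM per kb, each overlapping the next. In the next run of 6 overlapping levels, from 14.1 to 11.1 CPM per kb, stood Kif1b, Kif3a at 13.97 ± 0.928, Kif23, Kif18b, Kif26b and Kif2a. Kif3b was at 8.44 ± 0.606 and Kif7 at 4.34 ± 0.337 CPM per kb. Near the bottom were the neuronal Kif5c at 0.597 and Kif5a at 0.357 CPM per kb, then Kif6, Kif27 and Kif17 from 0.317 to 0.244 CPM per kb. In S14R/+ the same quantities were 38.0 ± 0.623 for Kif5b, 38.7 ± 1.81 for Kif1c, 12.9 ± 0.256 for Kif3a and 8.13 ± 0.0968 CPM per kb for Kif3b (SD, n = 3). Kif5b was 97.6% to 97.8% of the level of the 3 kinesin-1 heavy chains per kb in S14R/+ and 97.5% to 97.6% in the wild type.

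**Figure D4:**
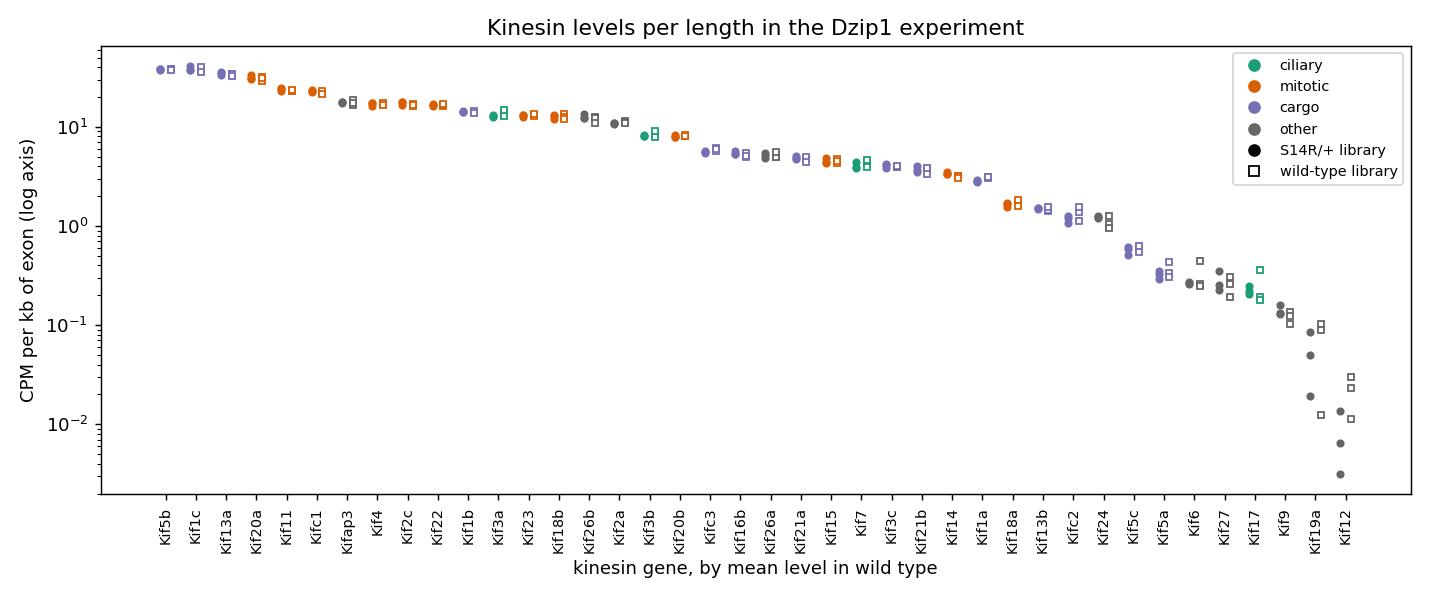
CPM per kb of exon of 40 kinesin genes in each library of the Dzip1 experiment on a log axis, in falling order of the wild-type mean (filled circles S14R/+, open squares wild type, coloured by role). The levels run from 38.1 CPM per kb for Kif5b down to 0.021 CPM per kb for Kif12, and the circles and squares of a gene lie close together except among the lowest genes.

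The S14R allele was accompanied by no kinesin past the threshold. Of 39 tested members, 0 had an adjusted p under 0.05 by edgeR, as did 0 of all 16160 tested genes (0%), and DESeq2 called 0. The smallest adjusted p was 0.828. At an unadjusted p under 0.05, 1 kinesin was higher, against 2.41% of all genes, and 1 was lower, against 3.53%. The fold changes were positive for 20 of 39, against 49.9% of all genes. In 1 of 39 S14R/+ lay above the wild type without overlap, against 5.27% of all genes, and in 2 of 39 below it, against 5.01%. Among the 30 members that averaged at least 10 CPM, the largest log2 fold change in size was 0.12, and the 95% intervals reached from -0.25 to 0.22. The highest library stood 1.03 times over the lowest for Kif5b and 1.23 times for Kif26b, the ends of the range over these 30. The deposited statistics of this experiment followed another split of the count columns than the sample labels do, so the groups here rest on the labels and column names alone.

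Ciliary kinesins were slightly lower in S14R/+ in all 4 cases, with a median log2 fold change of -0.10 against 0.00 over all genes, and none passed the threshold. Kif3a had 47.2, 45.4 and 46.6 CPM in S14R/+, against 50.8, 46.5 and 53.0 CPM in the wild type. The groups overlapped, since wild-type replicate 2 lay among the mutant values, and the log2 fold change was -0.11 ± 0.052 (SE, unadjusted p = 0.0612, adjusted p = 0.828 by edgeR). Kif3b had 45.6, 45.4 and 46.4 CPM in S14R/+ and 46.6, 44.7 and 51.4 CPM in the wild type (-0.05 ± 0.054). Kif7 had 17.6, 20.4 and 18.2 CPM in S14R/+ and 20.4, 18.1 and 21.1 CPM in the wild type (-0.08 ± 0.076). Kif17 was counted in this experiment, at 1.14, 1.02 and 0.948 CPM in S14R/+ and 0.874, 0.817 and 1.66 CPM in the wild type (-0.11 ± 0.287). Wild-type replicate 3 was the highest library for all 4. Without it the median of the 4 was -0.02, and the fold changes of Kif3b and Kif17 turned positive, at 0.0028 and 0.29. Markers of valve interstitial cells were also highest there, at 5233, 5462 and 5046 CPM in S14R/+ and 5299, 6000 and 6687 CPM in the wild type. Leukocyte markers were highest there too, at 97.1 CPM against 71.5 to 84.8 CPM in the other 5 libraries, and cardiomyocyte markers lowest, at 35015 CPM against 39349 to 41672 CPM. The part of these cell types in this result was not tested. Kifap3 had 72.3, 69.8 and 71.5 CPM in S14R/+ and 66.7, 74.7 and 69.5 CPM in the wild type, with overlap. Of 18 ciliary partners 5 were positive and 13 negative, and 0 passed by edgeR or DESeq2 or had an unadjusted p under 0.05. At that unadjusted p 2.41% of all genes were higher and 3.53% lower. Gli1 and Smo, a target and a transducer of Hedgehog signalling, had the smallest p, with log2 fold changes of -0.52 ± 0.304 and -0.04 ± 0.033.

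Among mitotic kinesins Kif14 had 34.9, 34.6 and 36.0 CPM in S14R/+, against 33.3, 32.7 and 31.3 CPM in the wild type, without overlap (log2 fold change 0.12 ± 0.048 SE, unadjusted p = 0.0372, adjusted p = 0.828 by edgeR). Kif2c, a spindle depolymerase, had 77.2, 72.0 and 77.4 CPM in S14R/+ and 70.9, 74.6 and 73.0 CPM in the wild type (0.05 ± 0.040). Kifc1 had 76.7, 78.0 and 80.1 CPM in S14R/+ and 75.5, 78.5 and 73.7 CPM in the wild type (0.05 ± 0.036), both with overlap. The median over the 12 was 0.0055, with 7 positive and 5 negative. All 18 mitotic partners had a positive log2 fold change with a median of 0.03, while 0 passed the threshold by edgeR or DESeq2, 0 had an unadjusted p under 0.05 and 0 of the 18 had groups without overlap. Of all genes, 2.41% were higher and 3.53% lower at that unadjusted p, and 5.27% were higher and 5.01% lower without overlap. Aurka and Bub1, kinases of the spindle and of its checkpoint, had the smallest p, with 0.09 ± 0.054 and 0.08 ± 0.046. Their summed level was 3236, 3136 and 3348 CPM in S14R/+ and 3165, 3226 and 3118 CPM in the wild type, with overlap.

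Cargo kinesins split 8 to 6 in direction, with a median of 0.02. Kif1a had 26.6, 27.1 and 25.8 CPM in S14R/+, against 28.2, 28.9 and 28.8 CPM in the wild type, without overlap (log2 fold change -0.11 ± 0.048 SE, unadjusted p = 0.0428, adjusted p = 0.828 by edgeR). Kifc3, a minus-end motor known from epithelial junctions, had 29.3, 29.95 and 28.9 CPM in S14R/+, against 32.6, 30.6 and 31.9 CPM in the wild type, also without overlap (-0.11 ± 0.049). Kifc2 had 4.69, 4.97 and 4.24 CPM in S14R/+ and 5.38, 4.38 and 6.10 CPM in the wild type (-0.19 ± 0.132). Of 15 cargo partners tested, 8 were positive and 7 negative, and 0 passed by edgeR or DESeq2 or had an unadjusted p under 0.05. At that unadjusted p 2.41% of all genes were higher and 3.53% lower. Klc2, a light chain, and Mapk8ip2, a scaffold that binds light chains, had the smallest p, at 0.07 ± 0.047 and -0.32 ± 0.249. Mitotic minus cargo levels were 0.79, 0.72 and 0.85 in S14R/+ and 0.76, 0.78 and 0.72 in the wild type, on the scale of mean log2(CPM + 1), and overlapped.

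The 9 other kinesins tested gave 5 positive and 4 negative fold changes, with a median of 0.02. Kif24 had 9.67, 9.87 and 10.0 CPM in S14R/+ and 10.0, 8.41 and 7.58 CPM in the wild type (log2 fold change 0.18 ± 0.099). Kif26b had 180, 196 and 180 CPM in S14R/+ and 184, 180 and 160 CPM in the wild type (0.09 ± 0.057). Kif6 had 1.58, 1.62 and 1.55 CPM in S14R/+ and 1.57, 1.51 and 2.64 CPM in the wild type (-0.26 ± 0.227), and without wild-type replicate 3 its fold change was 0.04. All 3 overlapped. Kif9, Kif19a and Kif27 averaged under 2 CPM in both groups, and Kif12, not tested, stayed at or below 0.101 CPM.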

How the data were processed

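Libraries were grouped by the genotype in the labels, and replicates were numbered in accession order. Per the labels' protocols, DNase-treated total RNA from an RNeasy kit was made into libraries with a SMART-Seq v4 kit. The submitters' processing notes name mm10 (GRCm38) as build and, as tools, HTSeq, DESeq and DESeq2 with cutadapt 1.11 and FastQC 0.11.5. No source used here gives the aligner, the annotation or the strand setting. The authors deposited whole-number counts per gene, 1 column a library. Per the file headers, they also deposited a signal (baseMean, the mean of scaled counts), log2 fold changes with standard errors, a score (fold change over its error) and p-values with adjusted p-values. The deposited score of the Ift88 table had a Spearman correlation of 0.995 across genes with a refit of the labelled groups. That of the Dzip1 table had -0.615, and 0.959 with the last 3 count columns minus the first 3, so only Ift88 values of the deposited tables are quoted.

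Each table was tested apart by the quasi-likelihood test of edgeR 4.0.16 (R 4.3.3) after TMM scaling and the default filterByExpr, with Benjamini-Hochberg adjustment over all genes tested and a threshold of 0.05. CPM are TMM-scaled, and fold changes are mutant over wild type. The floor for groups at 0 was 3 counts over the group. Exon lengths came from GENCODE M21, where 24247 of 28591 symbols matched directly and 2231 through a RefSeq synonym. Promoter windows and start sites came from RefSeq (GRCm38.p6). Alternatives were DESeq2 1.42.0, RLE scaling, no filter beyond 1 count, a minimum mean count of 50, a threshold of 0.1, a lowess length correction (span 0.3), fits without each single library and, for Ift88, with those titled IR28N alone. Overlap counts under the length correction and without each library, and bounds without the knockout library with the most counts, were added after seeing the data. The steps were tested on simulated data. The closest pair of libraries, S14R/+ replicate 2 and Dzip1 wild-type replicate 2, had a chi-squared statistic over degrees of freedom of 10.8, and no copies were found.

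The members and lists were chosen with earlier results of these data known. Named are the ciliary kinesins and Kifap3, and in each experiment the 3 tested members with the smallest p among mitotic, cargo and other kinesins; of partner lists, those past the threshold or the 2 with the smallest p. Further genes (Kif11, Kif4, Kif22, Kif1c, Kif1a, Kif5a, Klc1 and others described in the text) were chosen after their values were seen.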

Additional observations from a re-analysis of the deposited data

How the results depend on the processing

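The spread between the Ift88 libraries limits what can be called there: of the fits to that table that kept both wild-type libraries, DESeq2 called 2 kinesins higher and the other alternatives 0. Calls from fits with 1 wild-type library are not read. No kinesin was called lower under any alternative, and none in either direction in the Dzip1 experiment. The Ift88 medians moved under a mean count of at least 50 (other kinesins 1.29) and under the length correction, at 0.33 for all, 0.61 for ciliary, 0.93 for cargo and 0.32 for other kinesins. Leaving out 1 library gave 0.64 to 1.20 for ciliary, 0.98 to 1.65 for cargo and 0.51 to 1.07 for other kinesins, against 0.08 to 1.08 for mitotic and 0.60 to 1.38 for all. Members at 0 in the wild type were not left out of these medians. Kif20b passed under DESeq2 (log2 fold change 4.02), and Kif7 reversed in the IR28N libraries alone (-0.011), where the medians were 0.55 for mitotic, 0.78 for ciliary and 1.302 for cargo kinesins. Ift88 kinesins without overlap numbered 8 higher and 0 lower under the length correction (all genes 8.29% and 14.8%). With 1 library left out they numbered 15 to 25 higher and 0 to 3 lower (all genes 16.7% to 32.6% and 14.1% to 31%). Counts without overlap can hardly fall when a library is left out, short of changes in scaling. In the Dzip1 experiment the cargo median was 0.040 under the length correction. With 1 library left out it was -0.0016 to 0.026, the mitotic median -0.020 to 0.044 and the other median -0.017 to 0.042. Kifap3 reversed without wild-type replicate 1 (range over the fits without 1 library -0.018 to 0.065). Without wild-type replicate 3 so did Kif3b (range -0.096 to 0.0028), Kif17 (-0.29 to 0.29) and Kif6 (-0.41 to 0.042). Dzip1 kinesins higher without overlap numbered 2 to 6, of them 0 to 3 cargo, and those lower 2 to 5, with 1 library left out, against 8.63% to 16.5% and 8.3% to 16.7% of all genes. Fewer libraries or genes entered some of these fits, and the cause of the shifts was not tested. The deposited Dzip1 statistics were not run as an alternative, since they do not follow the labelled groups. No paired analysis was possible because the labels give the groups no shared replicate numbers. Of the Ift88 title series, whose meaning is not stated, only IR28N holds both genotypes, so a block by series leaves the comparison within IR28N given above.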
